A study of Canis lupus familiaris with 15 samples.

Results

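Interleukins are secreted proteins by which leukocytes and tissue cells signal to one another, and each acts through receptor chains on the surface of the target cell. The genes described here are those whose canine RefSeq symbol begins with IL and a digit, as reached through the RefSeq accession that the array design gives for each probe. The reference table holds 85 such symbols, and 26 of them (30.6%) were reached by 49 probes. They comprise 18 ligands, 6 receptor chains and 2 antagonists or binding proteins, among 36604 targets measured in all. Values are log2 of the processed spot signal minus the 75th percentile of that array, so that 0 is the level of the 75th percentile and 1 unit is a 2-fold difference. The brightest probe stands for a gene with several probes. Levels of different genes come from different probes and are not compared with each other.

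IL2, IL4, IL7, IL15 and IL21 signal through receptors that share the common gamma chain IL2RG, and IL2 and IL15 also share the beta chain IL2RB. IL2RA is the chain that raises the affinity of the receptor for IL2. T cells are the main source of IL2 after activation, IL12 made by myeloid cells acts on T and NK cells through IL12RB2, and IL18 acts with it. In lymphoid tumours the levels of these genes depend on the tumour cells and on the other leukocytes, stroma and vessels sampled with them, and in bulk RNA fewer cells of a type and less RNA per cell cannot be told apart.

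The samples were 15 tissue pieces or fine needle aspirates from 5 dogs with lymphoma, 1 sample per array. Skin biopsies of MalcolmX and Rosco were the 2 control samples. Biopsies of the original drug resistant tumour came from MalcolmX, Jake, Rosco and Dog Y (n = 4), and 1 biopsy of a drug sensitive tumour, titled naive, came from Thai. MalcolmX also gave 1 aspirate after metformin, a drug used against diabetes. Rosco was sampled by aspirate once chemotherapy (chop in the title) had failed and metformin had not begun (n = 1), and while in remission after metformin (n = 1). Another 3 samples of this dog are labelled relapse 1, 2 and 3 and titled no remission 1, 2 and 3. They are called relapse aspirates 1 to 3 here, though these words give neither a date nor the way of sampling. A further aspirate of Rosco is labelled as a second original drug resistant tumour, and the last sample of this dog is tumour retrieved post mortem. Dose, duration, age and sex are not given in the sources used here. Each dog is 1 animal, and the 3 relapse samples are repeats from 1 dog. In comparisons within Rosco, p-values therefore measure the spread between samples of 1 dog and not between dogs. In comparisons that use the resistant biopsies the spread is between dogs, with 1 biopsy from each, and MalcolmX and Rosco also gave the skin.

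The 75th percentile of the processed signal lay between 368 and 1240 intensity units, 66.8% to 75.9% of probes were well above background, and no spot was saturated. The dimmest probe called well above background lay between -6.86 and -5.50 on the arrays, so levels near -6 and under mark the end of the measurable range. A pair of libraries stood apart from their labels, the Rosco biopsy and the Rosco second resistant aspirate. MS4A1, which marks B cells, was at -7.16 and -6.74 there, not well above background, against 0.38 to 3.53 on the other 11 tumour arrays. CA6, a carbonic anhydrase secreted by salivary glands, was at 8.59 and 8.99 there, and at 1.45 or under elsewhere. Results that include the Rosco biopsy are given with and without it.

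Of the 26 genes, 12 were well above background on all 15 arrays, 13 on some arrays and IL13 on none. The failed-chemotherapy and remission aspirates of Rosco held the highest level of 10 genes, 4 in the former and 6 in the latter. In 6 genes (IL2, IL4, IL12A, IL12RB2, IL2RB and IL29L) both of these aspirates were above each of the other 13 arrays that gave a value. The margin was narrow for IL29L (-1.54 against -1.63) and for IL4 (-4.93 against -5.02), the latter at 1 of its 3 probes. These counts of highest levels were not made over all targets, so they cannot show a trait of the family. Thai's sensitive biopsy held the highest level of 4 genes and the post-mortem sample of 3.

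**Figure D1:**
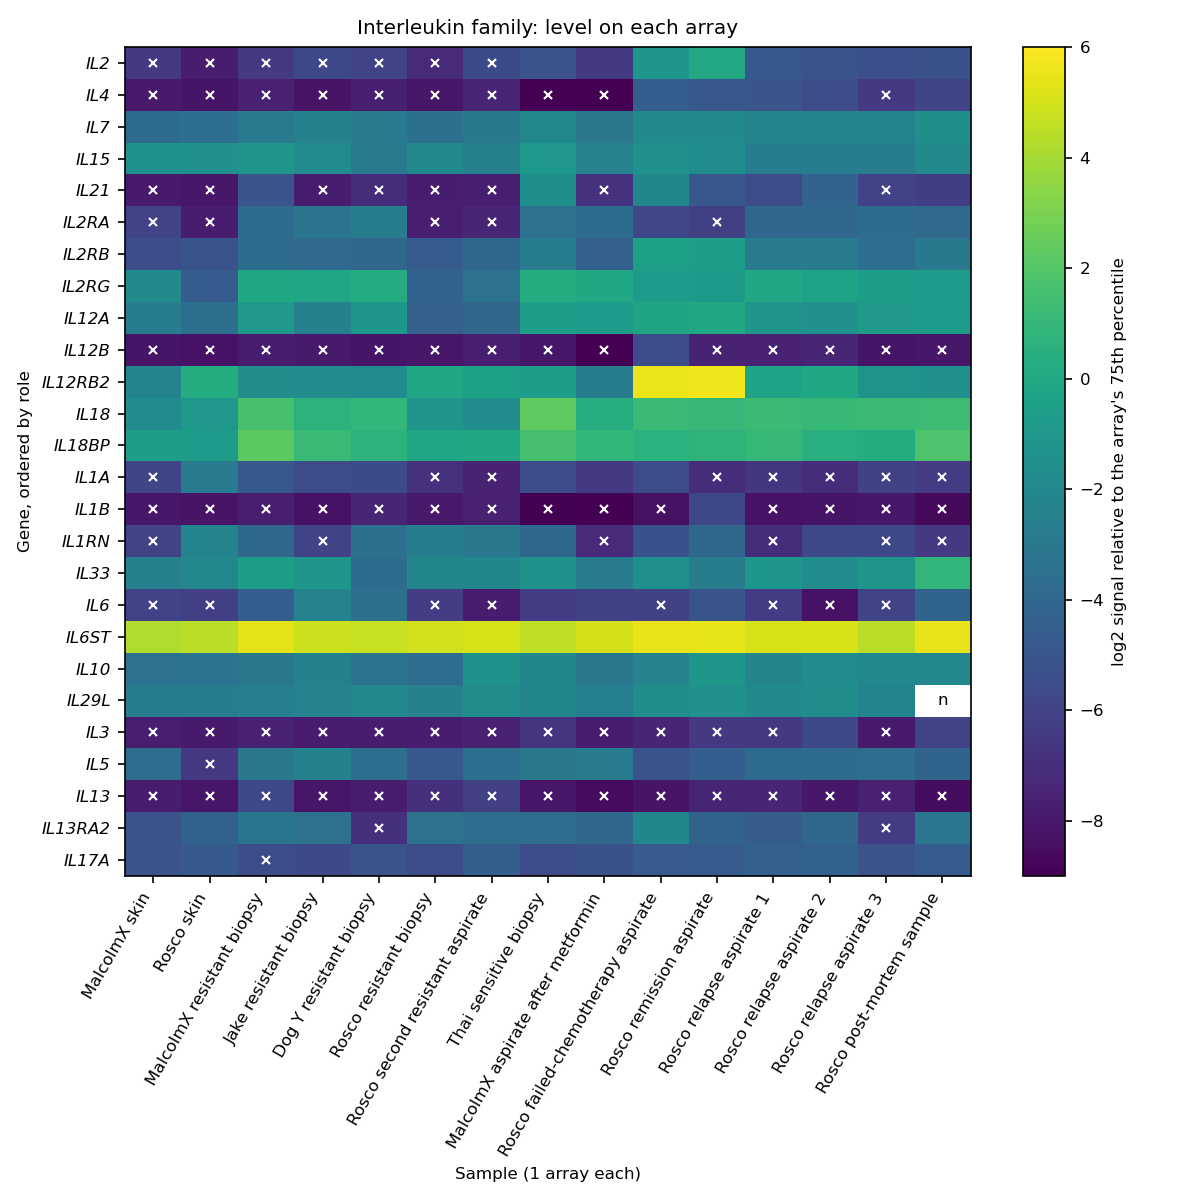
Level of each of the 26 interleukin family genes (rows, ordered by role) on each of the 15 arrays (columns), as log2 signal relative to the array's 75th percentile; a white cross marks a value not well above background and n a spot left out as an outlier. Colours are to be read along a row, since levels of different genes are not comparable, and Rosco's remission and failed-chemotherapy aspirates are brightest for IL12RB2 and IL2.

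The clearest pattern was in Rosco's aspirates. The 3 relapse aspirates were compared with the failed-chemotherapy and remission aspirates (n = 2), called the earlier pair. This asks how the samples labelled relapse differed from that pair in the same dog. The labels give no dates for these samples, so the order is read from their wording. Fell and rose mean lower and higher in the relapse aspirates. IL2, its receptor chain IL2RB, the IL12 receptor chain IL12RB2, IL15 and the IL12 subunit gene IL12A fell, while IL2RA and IL5 rose. That is 7 of 20 tested genes at an adjusted p under 0.05 (limma, two-sided), 2 higher and 5 lower. The comparison called 8545 of 25366 targets, 33.7% of them, and 35.7% of targets with a gene symbol, so the share of the family is near that of all targets. At an unadjusted p under 0.05 there were 8 family genes, against 44.3% of targets. The median difference was -0.50 over the 20 genes and -0.08 over all targets. Genes were tested if all arrays of 1 or both groups were well above background. Of the 20, 4 met this through the failed-chemotherapy and remission aspirates alone and 1 through the relapse aspirates alone. This filter on low values can lean the median and the counts by direction.

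IL12RB2 was at 5.58 in the failed-chemotherapy aspirate and 5.65 in the remission aspirate. In relapse aspirates 1, 2 and 3 it was at -0.34, -0.08 and -1.21. The earlier pair lay above every other array of the series, where the highest value was 0.28 in Rosco's skin. The difference was -6.16 (SE 0.35, adjusted p = 0.000307), a 71.5-fold lower signal and rank 37 of 25366 targets by size. A second IL12RB2 probe gave a difference of -4.47.

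IL2 was at -1.13 in the failed-chemotherapy aspirate and 0.08 in the remission aspirate, and at -4.85, -5.14 and -5.34 in relapse aspirates 1 to 3. On the other 10 arrays it reached at most -5.13, in Thai's biopsy. The groups did not overlap, and the difference was -4.59 (SE 0.38, adjusted p = 0.000741), 24.1-fold lower. IL2 has 6 probes on the array. The other 5 were well above background in the failed-chemotherapy aspirate, where they lay between -0.80 and 0.40, and in the remission aspirate, where they lay between 0.47 and 1.83, and on none of the other 13 arrays. Their differences ran from -8.02 to -7.77, which with the relapse level set at the background bound means at least 57.6-fold to at least 140-fold lower. Such a bound sets the mean of the brighter group against the lowest signal well above background on the dimmer arrays, or the probe's own signal where that is higher. The relapse level of IL2 therefore rests on 1 probe of 6.

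**Figure D2:**
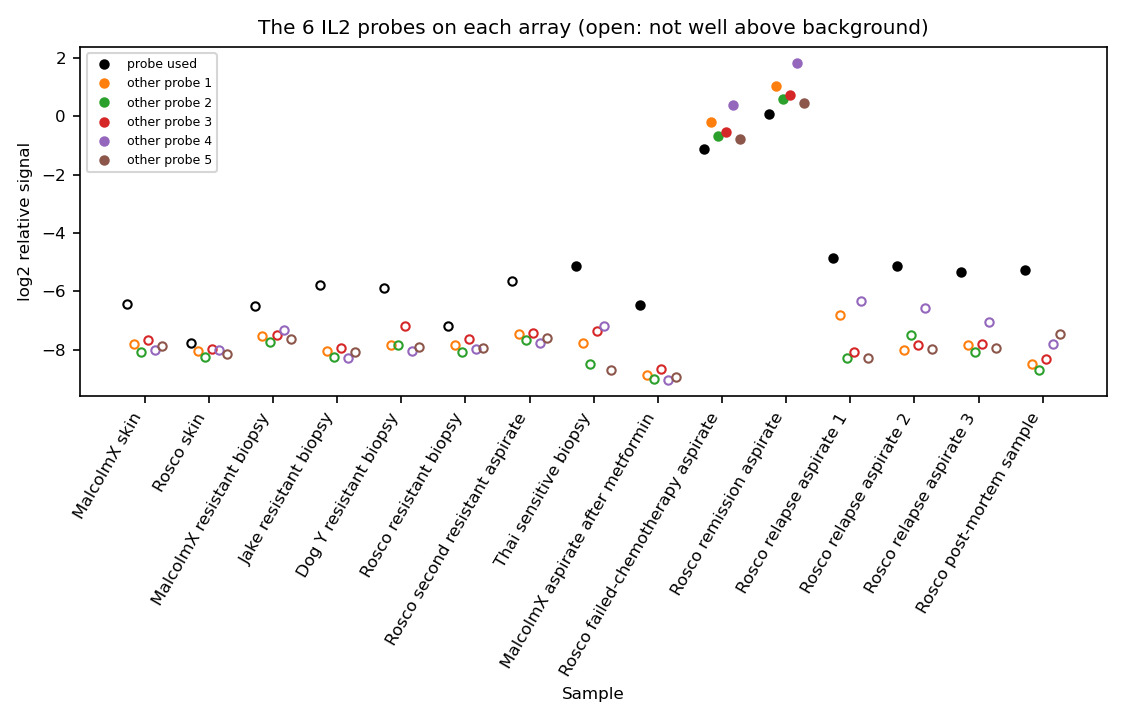
The 6 IL2 probes on each of the 15 arrays, as log2 signal relative to the array's 75th percentile; filled points are well above background and open points are not. All 6 probes are high in Rosco's remission and failed-chemotherapy samples, whereas in the relapse aspirates the probe used for the gene alone is above background.

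Of the IL2 receptor chains, IL2RB was at -0.45 and -0.68 in the earlier pair and at -2.89, -2.89 and -3.57 in the relapse aspirates. It too was higher in the earlier pair than on every other array. The difference was -2.55 (SE 0.27, adjusted p = 0.00147), and its other probes gave -1.67 and -2.00. IL2RA ran the other way. It was at -5.82 in the failed-chemotherapy aspirate, at -6.13 and not well above background in the remission aspirate, and at -4.03, -3.94 and -3.68 in the relapse aspirates. Its second probe was above background in the remission aspirate and not in the failed-chemotherapy aspirate, the reverse of the first, so both earlier levels are at the edge of detection. The difference was 2.10 (SE 0.20, adjusted p = 0.00121), 4.27-fold higher, and the second probe gave 1.97. IL2RA passed the filter on low values through the relapse aspirates alone. Its difference is taken against values at the edge of detection, so the difference and its SE do not give its true size. With normexp background correction, which compresses dim signals, the IL2RA difference was 0.19 (adjusted p = 0.454). The common chain IL2RG differed by 0.46 (adjusted p = 0.14), with the relapse aspirates between -0.59 and -0.09 and the earlier pair at -0.78 and -0.80.

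**Figure D3:**
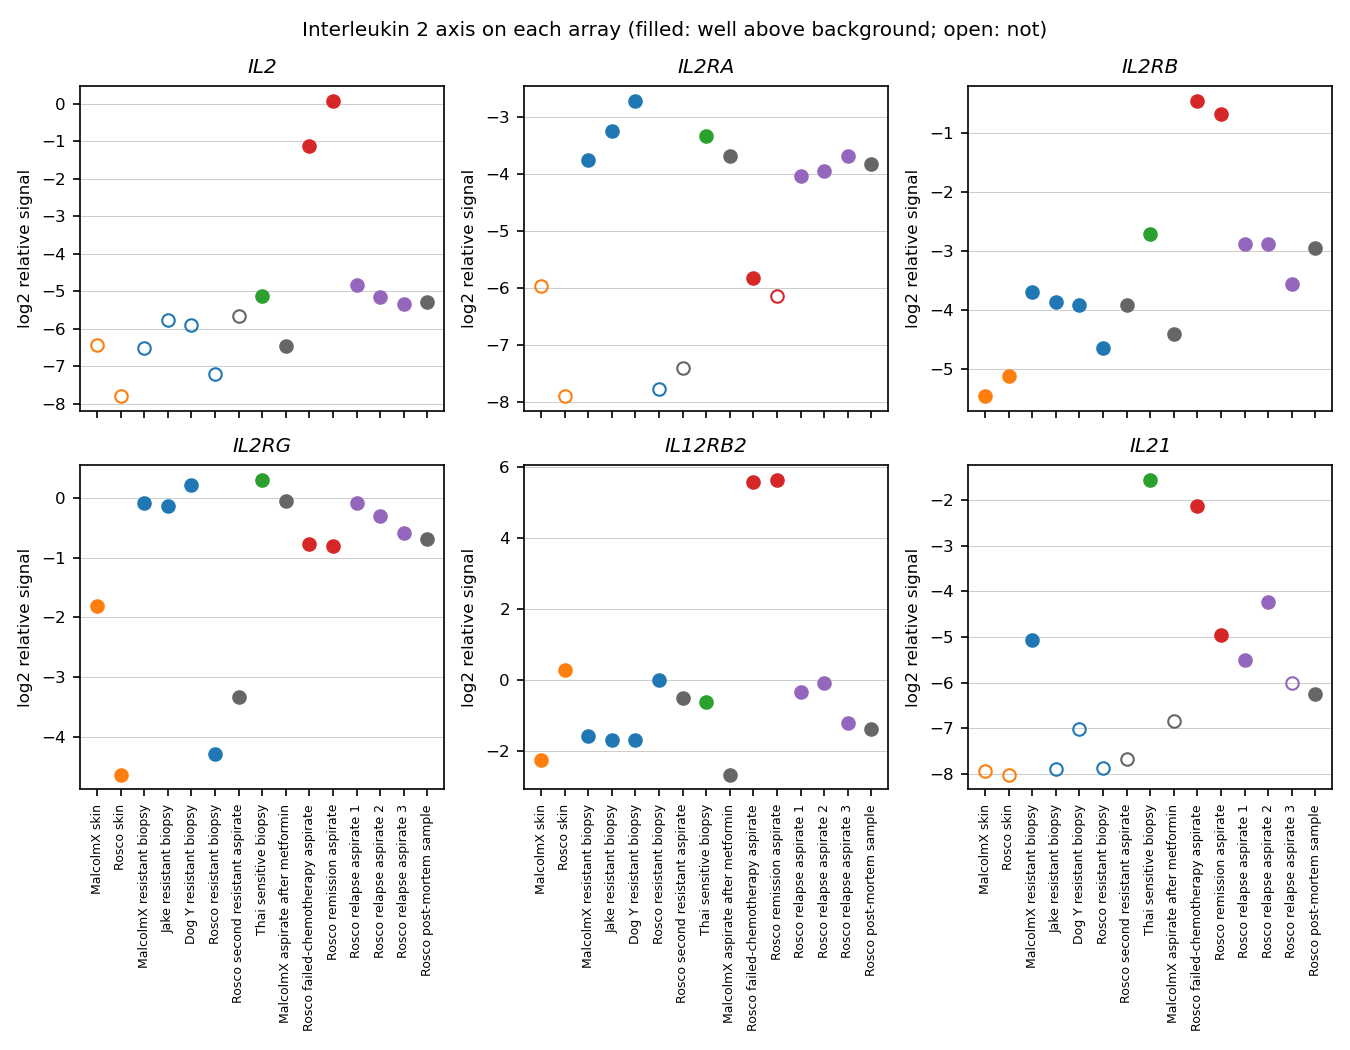
Level of IL2, its 3 receptor chains, IL12RB2 and IL21 on each array, as log2 signal relative to the array's 75th percentile (filled: well above background, open: not). Orange marks skin, blue resistant biopsies, green the sensitive biopsy, red the failed-chemotherapy and remission aspirates, purple the relapse aspirates and grey the other samples. The red points are the highest for IL2, IL2RB and IL12RB2 and lie under the purple points for IL2RA.

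Among the ligands, IL15, which sustains T and NK cells, was at -1.40 and -1.69 in the earlier pair and between -2.73 and -2.62 at relapse. It fell by 1.12 (SE 0.18, adjusted p = 0.00615), with -1.06 at its second probe. IL12A was at -0.23 and -0.02 against -1.43 to -0.95 and fell by 1.06 (SE 0.21, adjusted p = 0.0121). IL5, a growth factor of eosinophils, was at -5.11 and -4.50 against -3.78, -3.73 and -3.59, a rise of 2.15-fold (SE 0.23 on the log2 scale, adjusted p = 0.0149). The groups did not overlap in any of these 3 genes. The calls of IL12A and IL5 were the least firm. Without the failed-chemotherapy aspirate the difference of IL12A was -1.17 (adjusted p = 0.0505) and that of IL5 was 0.80 (adjusted p = 0.077). Without the remission aspirate IL12A was at -0.96 (adjusted p = 0.0942), and with normexp IL5 was at 0.17 (adjusted p = 0.521).

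The remaining 13 tested genes did not pass the threshold. Groups did not overlap in 13 of the 20 tested genes, 3 higher and 10 lower, against 28.9% and 31.4% of all targets. The filter on low values can lean these counts, since 4 of the 20 passed it through the earlier pair alone, IL1RN and IL4 among them. Only 1 passed it through the relapse aspirates alone. Without a call, IL1RN, the antagonist of the IL1 receptor, was lower without overlap (-1.57, adjusted p = 0.0654), as were IL4, IL7, IL6ST and IL29L. IL4 was at -4.53 and -4.93 in the earlier pair and at -5.02, -5.48 and -6.49 at relapse, the last not well above background. IL4 was seen by 1 of its 3 probes. IL18, an inflammatory cytokine made as a precursor, lay between 0.98 and 1.24 on all 5 arrays. IL18BP, which neutralises IL18, overlapped between the groups, with 0.60 and 0.76 in the earlier pair and 0.30 to 0.98 at relapse. The 2 probes of IL33 disagreed, with 0.74 at the brighter and -1.93 at the other.

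**Figure D4:**
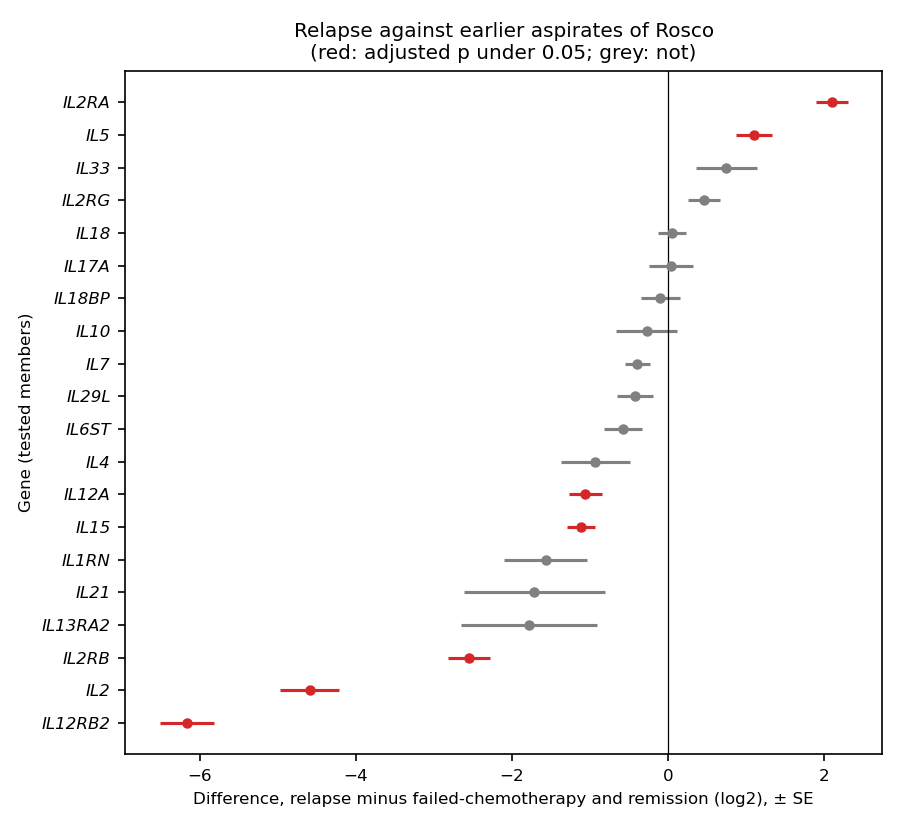
Difference in log2 relative signal between the 3 relapse aspirates and the failed-chemotherapy and remission aspirates for the 20 tested genes, with bars of 1 SE from limma; red points have an adjusted p under 0.05. IL12RB2, IL2 and IL2RB lie farthest to the left, and IL2RA lies farthest to the right.

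Both slides that carried these arrays held both kinds of aspirate. With the slide as a block IL12RB2 differed by -6.14, IL2 by -4.64, IL2RB by -2.50, IL2RA by 2.10, IL15 by -1.11, IL12A by -1.08 and IL5 by 1.05. All 7 stayed called, and IL1RN was called as well (-1.78, adjusted p = 0.00351). On slide 4 alone the remission aspirate is 1 array, whose spread is taken from relapse aspirates 2 and 3. There IL12RB2 (-6.30), IL2 (-5.32), IL2RB (-2.55) and IL2RA (2.32) passed, the last against a value not well above background. In that fit IL12A (-1.17, adjusted p = 0.158), IL15 (-0.93, adjusted p = 0.215) and IL5 (0.84, adjusted p = 0.265) missed. On slide 3, with 1 aspirate of each kind and no test, the differences were -5.92, -3.72, -2.44, 1.79, -0.95, -1.33 and 1.33 in the same order of genes.

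Genes that mark T cells moved with these results. Of 16 listed T cell markers, 6 were named on the array, and all 6 were lower at relapse, 5 of them called. Their summed level (log2 of the sum of their signals) was 4.49 and 4.57 in the earlier pair and between -0.89 and 0.29 at relapse. CD8A was at 3.21 and 2.89 and then between -3.97 and -3.04, and CD28 was at 1.00 and 1.41 and then between -4.52 and -3.66. CD4 differed by -0.30 (adjusted p = 0.505). The 3 named B cell markers did not move together. MS4A1 was at 0.40 and 0.38 and then between 1.78 and 2.33, a rise of 1.70 (adjusted p = 0.00278). CD40 rose by 2.59 (adjusted p = 0.00187), and BCL6 fell (adjusted p = 0.0024). BCL6 passed the filter on low values through the earlier pair alone, so its p-value is taken against background values. Markers of NK and cytotoxic cells were lower in 4 of 5, 3 of them called, with a summed level of 3.57 and 2.43 against 0.65 to 1.61. Neutrophil markers were lower in 4 of 5, with 2 called lower and 1 higher and a summed level of 2.80 and 4.60 against -0.09 to 2.53. Keratinocyte markers were lower in 5 of the 5 tested, 3 of them called, at 2.24 and 2.20 against 1.44 to 2.12. The part of these cell types in the interleukin differences was not tested. Of a list of 70 genes of cytokine signalling (other cytokines, their receptors, kinases and regulators), 11 were named and 10 tested. BCL6, a repressor active in germinal centre B cells, fell to a level not well above background, at least 2.41-fold. JAK1, a kinase bound to many cytokine receptors, fell by 0.79 (adjusted p = 0.0413), and the other 8 did not pass.

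The comparison of resistant biopsies with skin asks how the tumours differ from control tissue. With all 4 biopsies no family gene passed among 15 tested. The limma test called 103 of 23921 targets, 0.431% (0.00836% higher and 0.422% lower). At an unadjusted p under 0.05 there were 2 family genes, IL18BP and IL2RB, against 14.8% of targets. The share of the family is thus near that of all targets. Of the 15 genes 12 were higher and 3 lower, with a median difference of 0.67 against 0.25 over all targets. Groups did not overlap in 5 genes, all higher, where 18.1% of targets were higher and 10.4% lower without overlap.

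IL2RB was at -5.46 in the skin of MalcolmX and -5.12 in that of Rosco. In the biopsies of MalcolmX, Jake, Dog Y and Rosco it was at -3.70, -3.87, -3.92 and -4.64, so that Rosco's biopsy lay nearest to skin. The difference was 1.26 (SE 0.39, adjusted p = 0.28). IL18BP was at -0.60 and -0.78 in skin and at 2.23, 1.16, 0.68 and -0.10 in the biopsies in the same order, again with Rosco lowest (difference 1.68, adjusted p = 0.329). The other 3 genes without overlap were IL7 (0.72), a survival factor of lymphocytes made by stroma, IL6ST (0.67), the signalling chain shared by receptors of the IL6 group, and IL29L (0.28), a relative of the lambda interferons. The 3 other probes of IL6ST differed by -1.23 to -0.60, so its direction depends on the probe.

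Without the Rosco biopsy 3 genes were called higher among 18 tested, IL2RA, IL18 and IL2RB, where 6.13% of targets were called higher, 6.66% lower and 12.8% in either direction. At an unadjusted p under 0.05 there were 8 family genes, against 36.2% of targets. Groups did not overlap in 12 genes, all higher, against 37.3% of targets higher and 20.1% lower. The filter on low values can lean these counts, since 4 of the 18 passed it through the biopsies alone and 2 through skin alone. IL2RA was at -3.75, -3.24 and -2.72 in the biopsies of MalcolmX, Jake and Dog Y. At this probe it was not well above background in either skin sample (-5.95 and -7.88) or in the Rosco biopsy (-7.76), while a second probe was above background in the skin of MalcolmX (-5.67). The difference of 3.68 (SE 0.66, adjusted p = 0.0314) is thus taken against background values, and with skin set at the background bound it is at least 6.55-fold at this probe. IL2RA passed the filter on low values through the biopsies alone, and with all 4 biopsies it was not tested. IL18 was at 1.63, 0.63 and 0.96 against -1.71 and -1.02 in skin, a rise of 2.44 (SE 0.44, adjusted p = 0.0319), and the Rosco biopsy at -1.19 lay between the skin values. IL2RB rose by 1.46 (SE 0.31, adjusted p = 0.0412) at its brightest probe. Its second probe went the other way, at -5.46 and -5.51 in skin and at -5.95, -5.62 and -6.15 in the 3 biopsies, with Jake's alone of these above background. The third was above background in no skin sample or biopsy, so the call rests on 1 probe.

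IL6, IL18BP and IL2RG lay just past the threshold without that biopsy. IL6, a cytokine of B cell growth and inflammation that also passed the filter through the biopsies alone, was at -4.51, -2.34 and -3.49 in the 3 biopsies and not well above background in skin (difference 2.63, adjusted p = 0.0556, at least 5.66-fold). IL18BP differed by 2.05 (adjusted p = 0.0582). IL2RG was at -0.09, -0.15 and 0.21 in the 3 biopsies, at -4.29 in Rosco's biopsy, and at -1.80 and -4.63 in the skin of MalcolmX and Rosco. It differed by 3.21 (adjusted p = 0.0588). The 2 skin samples themselves differed in B cell content, with MS4A1 at 0.84 in MalcolmX and at -8.04, not well above background, in Rosco, and the part of this in the comparison was not tested.

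**Figure D5:**
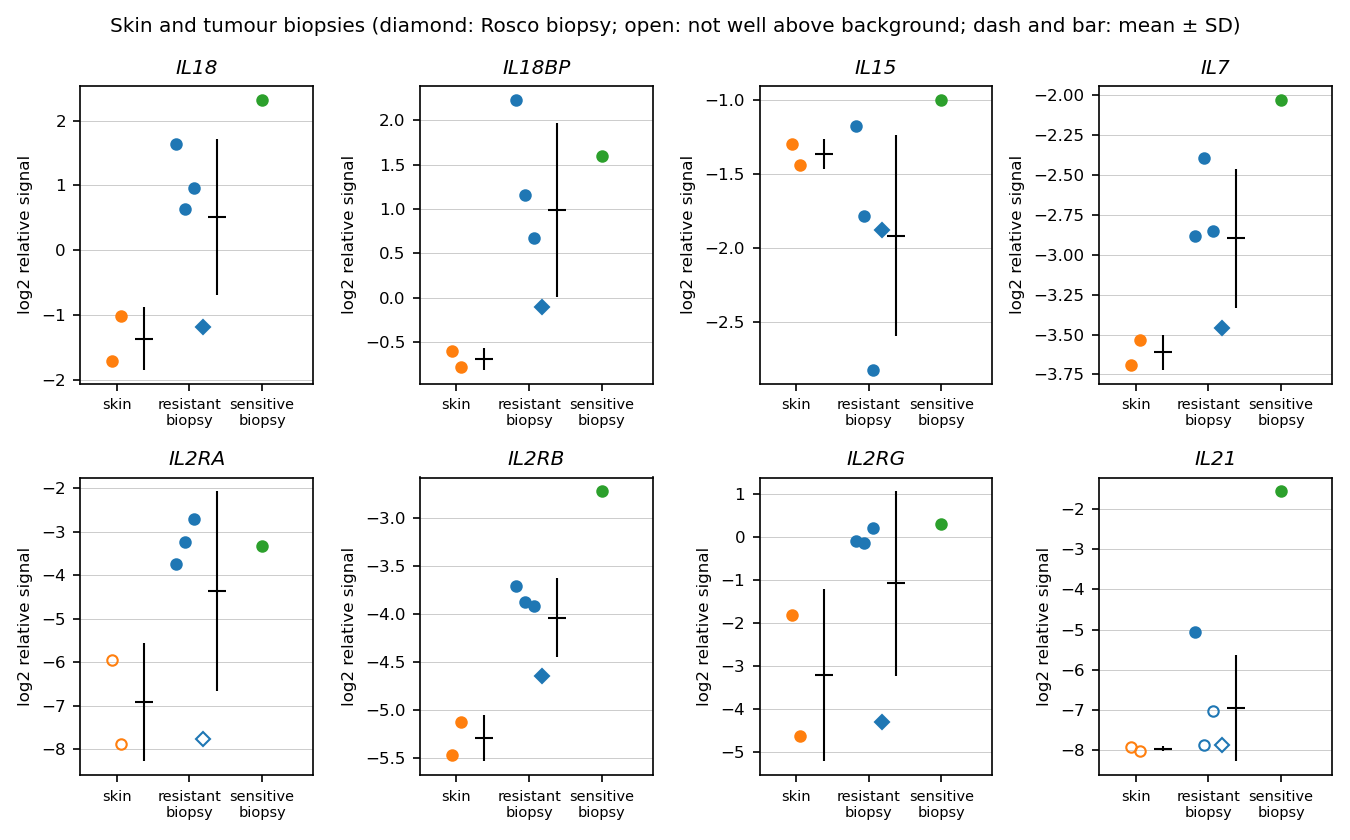
Level of 8 interleukin family genes in skin (n = 2), resistant biopsies (n = 4) and the sensitive biopsy (n = 1), as log2 signal relative to the array's 75th percentile; the diamond is the Rosco biopsy, open symbols are not well above background, and the dash and bar give the mean and SD. For IL18, IL2RA and IL2RG the Rosco biopsy lies with skin and away from the other 3 biopsies.

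T cell markers were higher in the biopsies in 3 of the 3 tested and keratinocyte markers lower in 8 of 8. The summed level of the T cell markers ran from -2.35 to -0.73 in the biopsies and was -3.42 and -2.74 in skin. For keratinocyte markers it ran from 1.24 to 4.06 in the biopsies, with Rosco's the highest, and was 7.67 and 10.3 in skin. Skeletal muscle markers (5 of 5) and fibroblast markers (5 of 5) were lower too, with summed levels of 8.11 and 6.70, and of 7.25 and 8.78, in skin against -4.56 to 1.11 and 2.60 to 7.10 in the biopsies. Macrophage markers were higher in 6 of 7, at 1.77 and 2.40 in skin against 3.33 to 4.20. Their part in the family's differences was not tested. With the slide as a block IL2RB differed by 1.36 and IL18BP by 1.91, and no family gene was called. On slide 1 alone, with 1 skin sample and 3 biopsies, the values were 1.32 and 1.18, and on slide 2, with 1 of each, 1.42 and 3.01. Of the signalling genes 5 were tested and none called. Without the Rosco biopsy BCL6 was called lower in the biopsies (adjusted p = 0.0208), at least 6.98-fold, and all of them were at background. It passed the filter on low values through skin alone, so its p-value is taken against background values.

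Thai's biopsy, labelled drug sensitive, was set against the 4 resistant biopsies. As a single array it takes its spread from the resistant group. None of 21 tested genes was called, and limma called 0 of 26343 targets, 0%, with 786 (2.98%) at an unadjusted p under 0.05, 1 of them in the family (IL21). Of the 21 genes 17 were higher and 4 lower, with a median of 0.61 against 0.08 over all targets. The filter on low values can lean this count, since 8 of the 21 were above background on Thai's array but not on all 4 resistant arrays. Thai lay above all 4 resistant biopsies in 9 genes and under them in 2, where 20.4% and 15.2% of targets did so.

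IL21, made by helper T cells and active on B cells, was at -1.55 in Thai, at -5.06 in MalcolmX, and not well above background in Jake, Dog Y and Rosco, at -7.88, -7.02 and -7.87. The difference was 5.41 (SE 1.19, adjusted p = 1), and a second probe gave 4.86, at least 7.19-fold. IL21 was tested through Thai's array alone and against values mostly at background, so the difference and its SE do not give its true size, and with normexp the difference was 1.94. The other genes in which Thai lay above all 4 resistant biopsies were IL18 (1.82), IL12A (1.58), IL2RG (1.38), IL2RB (1.32), IL2 (1.21), IL10 (0.96), IL15 (0.92) and IL7 (0.87). IL2RB was at -2.72 in Thai and no higher than -3.70 in the resistant biopsies. IL2 at -5.13 was above background in Thai at 1 probe of 6. IL6 differed by -2.24, at -6.39 against -4.51, -2.34, -3.49 and -6.26 in MalcolmX, Jake, Dog Y and Rosco.

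Without the Rosco biopsy again none of 21 genes was called (0% of targets), with 16 higher and 5 lower, and 4 had an unadjusted p under 0.05 against 5.94% of targets. Thai then lay above all 3 in 10 genes and under them in 2, against 25.9% and 23.7% of targets. The IL2RG difference then shrank from 1.38 to 0.31 and that of IL2RA from 1.04 to -0.09, while IL21 remained at 5.11 (adjusted p = 0.667). Against all 4 resistant biopsies, all 6 T cell markers and all 5 NK and cytotoxic markers were higher in Thai. So were macrophage and dendritic cell markers (7 of 7) and B cell markers (3 of 3). Fibroblast markers (5 of 5) and exocrine gland markers (4 of the 4 tested) were lower, and the other lists were mixed. Summed levels of the T cell and of the NK and cytotoxic markers were 0.45 and 3.78 in Thai, against -2.35 to -0.73 and 0.07 to 1.19 in the resistant biopsies. The part of these cell types was not tested. Among 10 signalling genes tested none passed. IFNG, the type of interferon that activated T and NK cells secrete, was at -3.15 in Thai and not well above background in any resistant biopsy, at least 6.49-fold higher (difference 4.79, adjusted p = 0.522). Thai's array was read on another slide and scan day than all 4 resistant biopsies, so slide and group cannot be told apart.

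Metformin samples form 1 pair in each of 2 dogs, with 1 array on each side and so no test. In MalcolmX 17 genes were above background in both the biopsy and the later aspirate. None was 2-fold higher in the aspirate and 7 were 2-fold lower, against 1.48% and 7.58% of 23183 targets. These were IL33 (-2.17), IL1A (-1.60), IL6 (-1.53), IL18BP (-1.30), IL18 (-1.27), IL15 (-1.15) and IL12RB2 (-1.09). IL33, an alarm cytokine of epithelium, endothelium and stroma, went from -0.61 to -2.78, and IL18 from 1.63 to 0.36. The IL2 receptor chains differed less, with IL2RA at -3.75 and -3.68 and IL2RG at -0.09 and -0.05. This pair also differs in the way of sampling, biopsy against aspirate, which cannot be told apart from treatment.

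In Rosco both sides were aspirates, from failed chemotherapy to remission after metformin, but they were read on different slides, so slide and treatment cannot be told apart. Among 19 genes above background on both, 3 were 2-fold higher and 3 lower in remission, against 3.04% and 1.48% of 24807 targets. IL10, an inhibitor of inflammatory responses, went from -2.34 to -1.06, IL2 from -1.13 to 0.08 and IL1RN from -5.22 to -4.02. IL21 went from -2.12 to -4.95, IL13RA2, a decoy receptor for IL13, from -2.12 to -4.24, and IL33 from -1.46 to -2.67. IL33 was lower in the later sample of both pairs. All 6 of these differences were under 2-fold with normexp, from -0.83 for IL21 to 0.89 for IL2. IL12B, the second IL12 subunit, was above background in the failed-chemotherapy aspirate (-5.48) and on no other array, and IL1B in the remission aspirate (-5.74) and on no other. IL12RB2, IL2RB and IL2RG differed by 0.07, -0.22 and -0.02.

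The post-mortem sample was set against the 3 relapse aspirates, to ask whether the tumour at death differed from the relapses sampled before it. As a single array it takes its spread from the relapse aspirates. None of 20 tested genes was called, limma called 0 of 27116 targets, 0%, and 5 family genes had an unadjusted p under 0.05 where 15.2% of targets did. The post-mortem sample lay above all 3 aspirates in 9 genes and under them in 4, against 36.8% and 29.3% of targets, and the median difference was 0.16 against 0.06 for all targets. The filter on low values can lean these values, since 5 of the 20 genes were above background post mortem but not in all 3 aspirates. At its brighter probe IL33 was at 0.88 in the post-mortem sample, above every other array of the series, and at -1.12, -1.68 and -1.18 in relapse aspirates 1 to 3. At the second probe the post-mortem sample was at -0.85, under the failed-chemotherapy aspirate (-0.26) and the Jake biopsy (-0.47). The difference from the relapse aspirates was 2.20, 4.60-fold, at the brighter probe and 1.83 at the second, without a call.

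IL6 was at -4.17 and not well above background in any relapse aspirate, at least 3.55-fold higher (adjusted p = 0.312). IL18BP (1.22), IL15 (0.85) and IL7 (0.69) were the other genes with an unadjusted p under 0.05. IL2 (-5.28), IL2RA (-3.83) and IL2RB (-2.96) lay within the range of the relapse levels. On slide 3 alone, against relapse aspirate 1, IL33 differed by 1.99 and IL6 by 2.16, and the slide block gave the same values without a call. Fibroblast markers were higher in 5 of 5 and endothelial markers in 3 of 3. Summed levels of these 2 lists were 6.02 and 5.46 post mortem against 2.45 to 3.14 and 3.83 to 4.61. Macrophage markers were higher in 6 of 7, keratinocyte markers in 4 of the 4 tested and skeletal muscle markers in 3 of the 3 tested. T cell markers were lower in 6 of 6 and NK and cytotoxic markers in 5 of 5. The part of these cell types was not tested. Of 10 signalling genes tested none passed, with 3 higher and 7 lower.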

How the data were processed

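Each sample's Cy3-labelled RNA was read on its own 1-colour canine Agilent array, per the labels. Per the file headers, Agilent Feature Extraction 11.0.1.1 was the authors' image software, and the deposited intensity is a background-subtracted processed signal with flags for spots above background, saturated or outlying. The deposited series table holds another intensity, made before deposit, per the file headers, as the spot median minus the local background median. It equals that difference in 678300 of 678300 values within 0.01. Where that table was used as an alternative, the floor, the log2 and the subtraction of each array's 75th percentile were applied here. Outlying spots (2 to 50 per array) were left out, which removed IL29L from the post-mortem sample, so it was not tested there. Of 43603 probes, 2186 (5.01%) received a symbol, each only 1, through the reference table's RefSeq accessions.

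Here log2 of the processed signal minus the 75th percentile of the array was tested with limma 3.58.1 in R 4.3.3 (lmFit, eBayes, two-sided, Benjamini-Hochberg over all targets, threshold 0.05). Targets were kept if all arrays of 1 or both groups were well above background. Spots of a probe were averaged, and the probe with the highest mean stood for its target. Named are all called family genes, then genes whose groups do not overlap, and in pairs genes that differ 2-fold; others are named to complete a role and were chosen after their values were seen. The members and lists were chosen with earlier results of these data known. The script was checked on simulated data. Alternatives were normexp with an offset of 50, quantile normalization, another percentile set, no dim filter, the mean of probes, the deposited table, slide or dog blocks, 1 fit over all groups and leaving out each array. The number of arrays limits precision.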

Additional observations from a re-analysis of the deposited data

Results flagged for a closer look

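In 26 sets of 4 resistant biopsies, 1 per gene, 3 held a sample far from the other 3, where chance gives such a sample in about 1 set of 20. IL12RB2 was at 0.0152 in the Rosco biopsy and between -1.70 and -1.57 in the others. IL2RG was at -4.29 in the Rosco biopsy and between -0.15 and 0.21 in the others. IL13RA2 was at -6.98, not well above background, in the Dog Y biopsy and between -3.41 and -3.18 in the others.

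IL1RN went in opposite directions in the metformin pairs, by -3.19 in MalcolmX, where the aspirate was not well above background, and by 1.20 in Rosco. The difference between the dogs was not tested, and each side is 1 array. The Rosco second resistant aspirate enters no comparison. IL10 was at -1.36 there, against -3.39 and -3.30 in skin, and IL2RB was at -3.92, against -5.46 and -5.12. This aspirate was read on another slide and scan day than both skin samples, so scan day and sample cannot be told apart. On all arrays of the skin's scan day IL10 ran from -3.61 to -2.39, and on those of the other day from -2.34 to -1.06.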

How the results depend on the processing

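The number of called family genes moved by more than 1.5 times under 3 alternatives. For resistant biopsies against skin it was 0, with 0 to 3 when 1 array was left out, the 3 arising without the Rosco biopsy. For the relapse aspirates it was 7, with 7 to 8 when 1 array was left out (5 of the 7 genes remained without the failed-chemotherapy aspirate and 6 without the remission aspirate, where other genes came in), and 3 (IL12RB2, IL2 and IL2RB) in 1 fit over all groups, whose spread includes the differences between dogs. For the post-mortem sample, 1 array, it was 0, and 1 with normexp (IL33, 1.83, adjusted p = 0.00539). For the sensitive biopsy it was 0 under every alternative run. The direction of 3 uncalled differences turned. With the mean of probes IL6ST against skin was -0.57 and IL33 at relapse -0.59, and leaving out 1 resistant biopsy moved IL2RA in the sensitive biopsy between -0.0947 (without Rosco) and 1.59. At the relapse comparison normexp shrank IL2 to -2.46 (adjusted p = 3.28e-05), and the mean of probes made it -7.36, both still called. MalcolmX and Rosco gave both skin and a biopsy; no family gene was called with the dog as a random block (correlation 0.199) or, in these 2 dogs alone, as a fixed block. Dim genes (IL3, IL4, IL12B, IL13 and IL1B) lay near background on most arrays, where differences could not be measured.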
